A study of Homo sapiens with 24 samples.

Results

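The change of protein-coding mRNAs after LSM14A knockdown was measured in total RNA of untreated A2058 cells, an established human melanoma line. The labels name this line, whereas a figure legend of the study names A375, another melanoma line, for the sequencing comparison. Of the 20345 gene IDs in the deposited count table, 12544 were protein-coding genes with enough counts to test in these 6 of 24 libraries. The siCTRL NT group had a scrambled siRNA. The siLSM14A NT group had siRNA against LSM14A, which the methods give at 20 nM of each siRNA. NT stands for not treated, and both groups had 3 replicates. Cells of both groups received cycloheximide shortly before collection, and the libraries were made from polyadenylated RNA. The libraries of cells treated with hydroxyurea (HU, 10 mM for 2 h) and of heavy polysomal RNA from untreated cells, both with either siRNA, serve here only as a comparison. Nothing in the labels says what a replicate number shares, so the p-values measure the spread between these libraries, which may be technical.

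LSM14A is the human relative of the yeast RNA-binding protein Scd6. Proteins of this family carry an Lsm domain and an RGG motif, repress translation and reside in P-bodies, cytoplasmic granules that hold mRNAs together with decapping and repressor proteins. Its known partners include the helicase DDX6 and the eIF4E-binding protein EIF4ENIF1 (4E-T). Loss of such a protein can be read at the level of translation, at the level of total mRNA, or both, and the values below concern total mRNA.

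LSM14A itself (ENSG00000257103; GRCh37 chr19:34663409-34720193, plus strand) stood at 92.1, 96.1 and 97.2 counts per 10 to the power of 6 counts (CPM) in the 3 siCTRL libraries and at 8.25, 9.37 and 7.83 CPM in the 3 siLSM14A libraries. All siLSM14A libraries were thus far below all siCTRL libraries. The log2 fold change was -3.49 (SE 0.075, adjusted p = 1.9e-09, edgeR), a decrease of 91.1%.

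The libraries held 24789280 to 40645263 counts. Markers of the melanocyte lineage, among them SOX10, PMEL and DCT, summed to 2420 to 2660 CPM with siCTRL and 2410 to 2610 CPM with siLSM14A. Their levels were uneven over both groups, with DCT at 738 to 1030 CPM and SOX10 at 646 to 697 CPM. MLANA and TYRP1 were low, at 6.17 to 10.9 CPM and 4.36 to 6.12 CPM. Markers of dedifferentiated melanoma (AXL, NGFR, WNT5A and EGFR) summed to 227 to 241 CPM with siCTRL and 243 to 282 CPM with siLSM14A. The groups did not overlap in this sum, as in 9.09% of single tested genes in the higher direction. By itself, AXL overlapped (180 to 194 CPM with siCTRL, 191 to 222 CPM with siLSM14A), and NGFR did not (43 to 47.2 against 51.3 to 60.6 CPM). WNT5A and EGFR reached at most 0.373 and 0.0807 CPM. The part of these markers in the results was not tested. Of the markers of other cells, KRT5, KRT1 and CD3E were at 0 counts in every library, and the leukocyte markers summed to at most 0.889 CPM. LUM, a fibroblast proteoglycan, was at 37 to 47.9 CPM over both groups. The other fibroblast markers were low, with COL1A1 at 1.18 to 1.8 CPM, DCN at 1.33 to 2.17 CPM and COL1A2 at 0 to 0.0738 CPM. The change of a gene was correlated with the GC content of its exons (Spearman's rho -0.312 across 12544 genes, which are not independent replicates). GC content moved with the deviation of single siLSM14A libraries from their group in either direction (rho 0.404, 0.194 and -0.446). Exons had a median GC content of 43.4% in the genes called higher below, 49.9% in those called lower and 47.6% in all tested genes. The part of GC content in these results was not tested beyond the fit with a GC correction, which kept 69 of the 71 calls.

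Few mRNAs moved. In bulk RNA, fewer cells with an mRNA and less of it per cell cannot be told apart. At an adjusted p under 0.05 (edgeR's quasi-likelihood test, Benjamini-Hochberg), 71 of the 12544 genes were called, which is 0.566%. There were 22 higher genes (0.175%) and 49 lower genes (0.391%) in siLSM14A cells, LSM14A included. At an unadjusted p under 0.05 there were 1349 genes (10.8%). In all 71 called genes the 2 groups did not overlap, as in 9.09% of all tested genes in the higher direction and 8.13% in the lower. The median change was 0.41 on the log2 scale over the higher genes and -0.48 over the lower genes, against -0.0009 over all tested genes. None of the 22 higher genes reached a 2-fold change. Just inside the threshold lay BIRC3 and MCC at an adjusted p of 0.0499, and just outside it VSIG10 and ZNF689 at 0.0506. The number called depended on single libraries. It was 39 without siCTRL replicate 2, 28 without siCTRL replicate 3, 40 without siLSM14A replicate 1 and 39 without siLSM14A replicate 2. Of the called genes, 23 lower and 5 higher passed whichever library was left out.

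**Figure D1:**
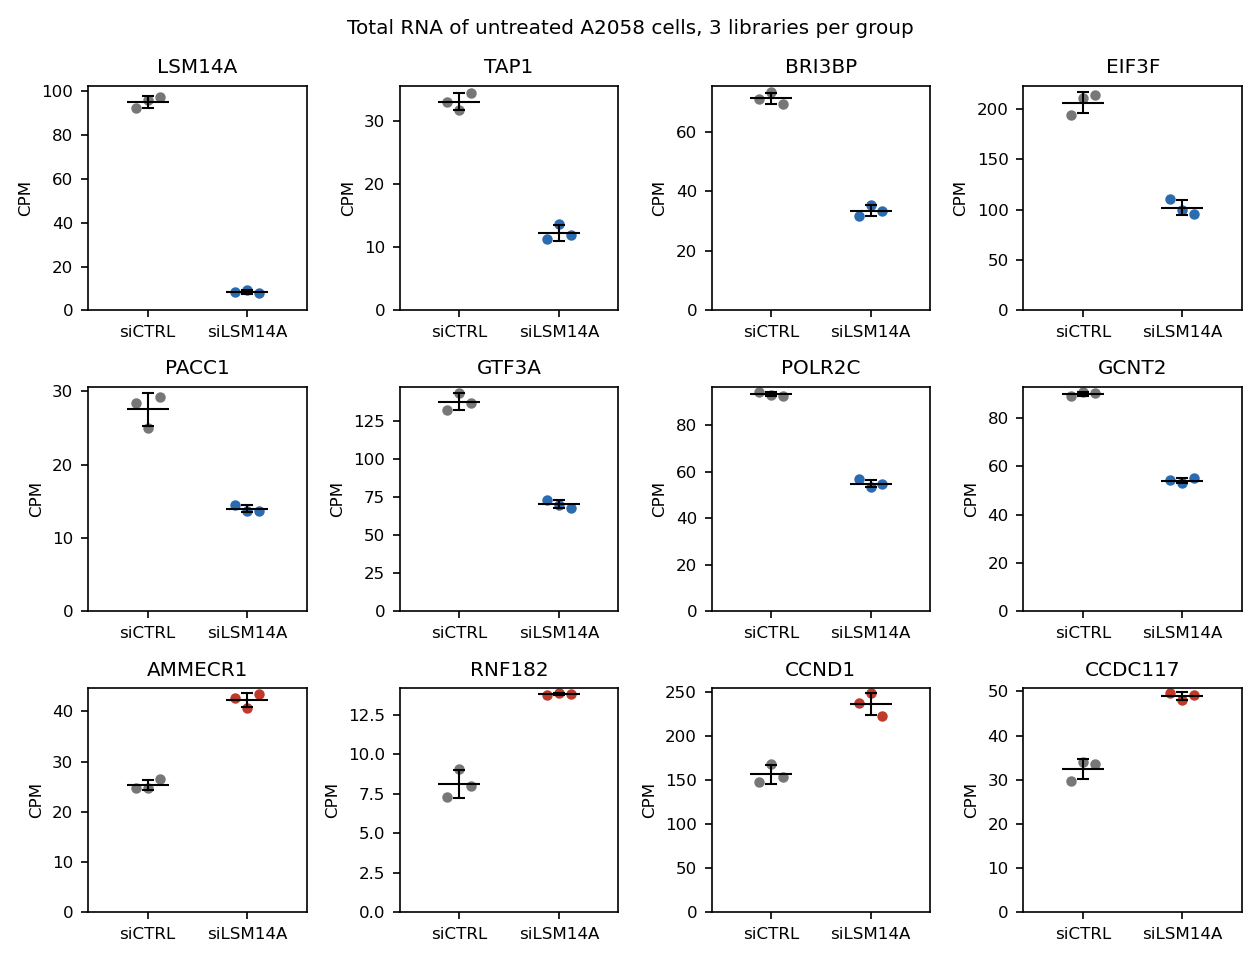
CPM of 12 genes (y axis, from 0) in the 3 siCTRL and 3 siLSM14A libraries of untreated cells (points), with the mean and SD as black bars. The groups do not overlap in any of the 12 genes, from LSM14A (decrease of 91.1%) to CCDC117 (1.51-fold higher).

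Many of the lower mRNAs share a short word of 7 bases, AACGGAG, with the LSM14A mRNA itself. The word came from earlier results of these data, so its frequency among the lower genes is a description and carries no test. The sites below are those of LSM14A and of lower genes with large changes, from the GRCh37 genome and the Ensembl canonical transcript of each gene. They are written 5′ to 3′ as DNA with the word in capitals.
LSM14A, coding sequence, across an exon junction: gatgacaatagagAACGGAGaccaacc
BRI3BP, 3′ UTR, chr12:125510019-125510045, plus strand: ctcagaaaacgaaAACGGAGgaaaaaa
EIF3F, 3′ UTR, chr11:8017680-8017706, plus strand: tgtgactctaataAACGGAGcctacct
PACC1, 3′ UTR, chr1:212538478-212538504, minus strand: cttccactttgtaAACGGAGctatcaa
GTF3A, coding sequence, chr13:28009576-28009602, plus strand: aaatctcgtgaaaAACGGAGtttggcc
GTF3A, coding sequence, chr13:28009653-28009679, plus strand: atctttgtgtcaaAACGGAGagtcacc
IKZF4, 3′ UTR, chr12:56432129-56432155, plus strand: taaatatttgtgtAACGGAGatatact
COQ10A, 3′ UTR, chr12:56664647-56664673, plus strand: agtactgaacggaAACGGAGttgtctt
POLR2C, 3′ UTR, chr16:57505043-57505069, plus strand: ctgcttcagcaaaAACGGAGattcagg
GCNT2, coding sequence, chr6:10626669-10626695, plus strand: ttgtatctatggaAACGGAGacttaaa
The base before the word is G in LSM14A and A in 14 of the 30 sites in 28 lower genes other than LSM14A. Among these sites, the run of bases identical to the LSM14A site around the word was 7 bases in 13 sites and never longer than 10. The 10-base runs were in ISG20L2, AHSA1, BCL7A and BCL7B.

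Large decreases were seen in single genes of antigen presentation, transcription and translation. TAP1, a subunit of the transporter that loads peptides for MHC class I, had 33.1, 31.8 and 34.5 CPM with siCTRL and 11.3, 13.7 and 11.9 CPM with siLSM14A. Its log2 fold change was -1.43 (SE 0.0841, adjusted p = 1.35e-05, edgeR). EIF3F, a subunit of the translation initiation factor eIF3, was at 194.6, 210.8 and 213.9 CPM with siCTRL and at 110.9, 99.8 and 95.8 CPM with siLSM14A. The groups were apart by more than their spread in both genes, and EIF3F changed by -1.02 (SE 0.0659, adjusted p = 2.97e-05, edgeR). GTF3A, the factor TFIIIA that starts transcription of 5S rRNA genes, went from 132.1, 143.3 and 136.7 CPM to 73.3, 69.8 and 67.8 CPM, a log2 fold change of -0.97 (SE 0.0556, adjusted p = 1.33e-05, edgeR). POLR2C, a subunit of RNA polymerase II, had 94.4, 93.1 and 92.7 CPM with siCTRL and 56.7, 53.6 and 54.6 CPM with siLSM14A, which is 41.2% lower. All 4 genes passed whichever library was left out.

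Membrane proteins were also among the larger decreases. BRI3BP, a multi-pass membrane protein, had 71.0, 73.3 and 69.5 CPM with siCTRL and 31.7, 35.3 and 33.5 CPM with siLSM14A (log2 fold change -1.09, SE 0.0594, adjusted p = 1.02e-05, edgeR). PACC1, the proton-activated chloride channel, had 28.45, 24.99 and 29.16 CPM against 14.5, 13.7 and 13.7 CPM. GCNT2, a glycosyltransferase that branches the I antigen, had 88.9, 90.5 and 90.3 CPM against 54.1, 52.9 and 54.9 CPM. In each of the 3 genes the highest siLSM14A library lay well under the lowest siCTRL library. IGSF8, an immunoglobulin-superfamily partner of tetraspanins, holds no copy of the word. It had 107.3, 102.3 and 107.4 CPM with siCTRL and 68.2, 68.3 and 59.8 CPM with siLSM14A, a decrease of 38.1% (adjusted p = 0.000475, edgeR).

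Other lower genes also had a role in gene expression. CUX1, a homeobox transcription factor, fell by 0.54 on the log2 scale, and PPARA, a nuclear receptor for fatty acids, fell by 0.57. IKZF4, a zinc finger transcription factor of the Ikaros family, was at 8.28, 8.87 and 10.1 CPM with siCTRL and 5.29, 4.57 and 4.21 CPM with siLSM14A, a decrease of 48.7%. ISG20L2, a nuclease of ribosomal RNA processing, fell by 28.1%, and CDC123, which assembles eIF2, fell by 27.4%. EIF4E2 (4EHP), a cap-binding translational repressor, had 107.0, 108.5 and 107.2 CPM against 82.8, 91.8 and 82.8 CPM (log2 fold change -0.33, SE 0.0564, adjusted p = 0.0328, edgeR). BCL7A and BCL7B, both subunits of the BAF chromatin remodelling complex, fell by 22.8% and 27.2%. PRPF19 of the spliceosome and the elongation factor TCEA1 fell by 0.32 and 0.27 on the log2 scale.

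Mitochondrial, secretory and signalling genes were also among the lower ones. CYCS, the electron carrier cytochrome c, had 224.6, 248.0 and 228.8 CPM with siCTRL and 154.7, 180.9 and 174.3 CPM with siLSM14A, so that the groups were close but did not overlap. OXA1L, which inserts proteins into the inner mitochondrial membrane, fell by 21.4%. COQ10A, a coenzyme Q-binding protein, fell by 43.5% and was more variable, at 8.76 to 13.1 CPM with siLSM14A and 16.6 to 20.9 CPM with siCTRL. OSTC, a subunit of the oligosaccharyltransferase, and ICMT, which methylates prenylated proteins, fell by 27.2% and 23.1%. TSKU, a secreted leucine-rich repeat protein, fell by 32.1%, and CD63, a tetraspanin of late endosomes and melanosomes, fell by 0.34 on the log2 scale from 1003 to 1031 CPM in siCTRL libraries. AHSA1, an activator of the HSP90 ATPase, was at 334.7, 357.0 and 334.1 CPM with siCTRL and at 278.9, 258.1 and 243.8 CPM with siLSM14A. FAM168A, UBAC1 and NPDC1 fell by 0.51, 0.49 and 0.51 on the log2 scale. The smallest decrease called was that of KDELR2, a receptor that returns proteins to the endoplasmic reticulum, at 16.1%.

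The higher genes included a cyclin, kinases and ubiquitin ligases. AMMECR1, a gene of the X chromosome, rose from 24.8, 24.7 and 26.5 CPM to 42.6, 40.7 and 43.5 CPM, which is 1.67-fold (SE of the log2 value 0.061, adjusted p = 0.000206, edgeR). CCND1, the cyclin that drives cells through G1, had 147.6, 168.8 and 153.6 CPM with siCTRL and 237.3, 248.9 and 223.2 CPM with siLSM14A (log2 fold change 0.59, SE 0.0644, adjusted p = 0.00172, edgeR). Every siLSM14A library was above every siCTRL library for both genes. CCDC117 rose by the same 1.51-fold as CCND1, from 29.82, 34.03 and 33.49 CPM to 49.7, 48.1 and 49.1 CPM. RNF182, a RING-type ubiquitin ligase, rose 1.69-fold. It was low, with 7.31, 9.06 and 7.99 CPM against 13.7, 13.8 and 13.8 CPM. DCBLD1, a transmembrane protein, rose 1.48-fold. These 5 genes passed whichever library was left out, except RNF182, which passed in 5 of 6 cases.

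The other higher genes rose by less. HIPK3, a nuclear kinase, rose 1.34-fold, and PIK3R3, a regulatory subunit of PI 3-kinase, rose 1.46-fold. WEE1, the kinase that holds CDK1 inactive before mitosis, had 35.3, 35.6 and 34.8 CPM with siCTRL and 45.8, 42.8 and 43.5 CPM with siLSM14A (1.25-fold). Its call was kept in 1 of 6 cases when a library was left out. HMGA2, an architectural chromatin protein, and CBX2, a Polycomb subunit, rose 1.24-fold and 1.28-fold. TP53INP1, a p53 target, rose 1.35-fold, and TPM1, an actin-binding tropomyosin, rose 1.33-fold. BIRC3, an inhibitor of apoptosis and ubiquitin ligase, had 8.08, 8.47 and 10.02 CPM against 13.3, 13.3 and 12.4 CPM, and its call was lost with a GC correction, as was that of the nucleoporin NUP58. SMIM13, SYTL2, PPP2R1B, MBOAT1, KCTD2, PLEKHB2 and MCC rose between 1.2-fold (PLEKHB2) and 1.35-fold (KCTD2).

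Some of these genes share exon bases with another gene or have processed copies. The methods name a strand-specific library kit, but the strand setting for counting is not stated. In these counts, reads of a gene and of its antisense partner thus cannot be told apart. Genes on the opposite strand covered 40% of the exon bases of KXD1, 29.5% of BRI3BP (THRIL), 22.7% of TPM1 and 14.2% of TAP1. For PIK3R3, a readthrough gene on the same strand shared 17.5%. The annotation names 42 pseudogenes of CYCS, 7 of OSTC, 4 of GTF3A and 2 of EIF3F, and how their reads were divided is not given in the sources used here.

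**Figure D2:**
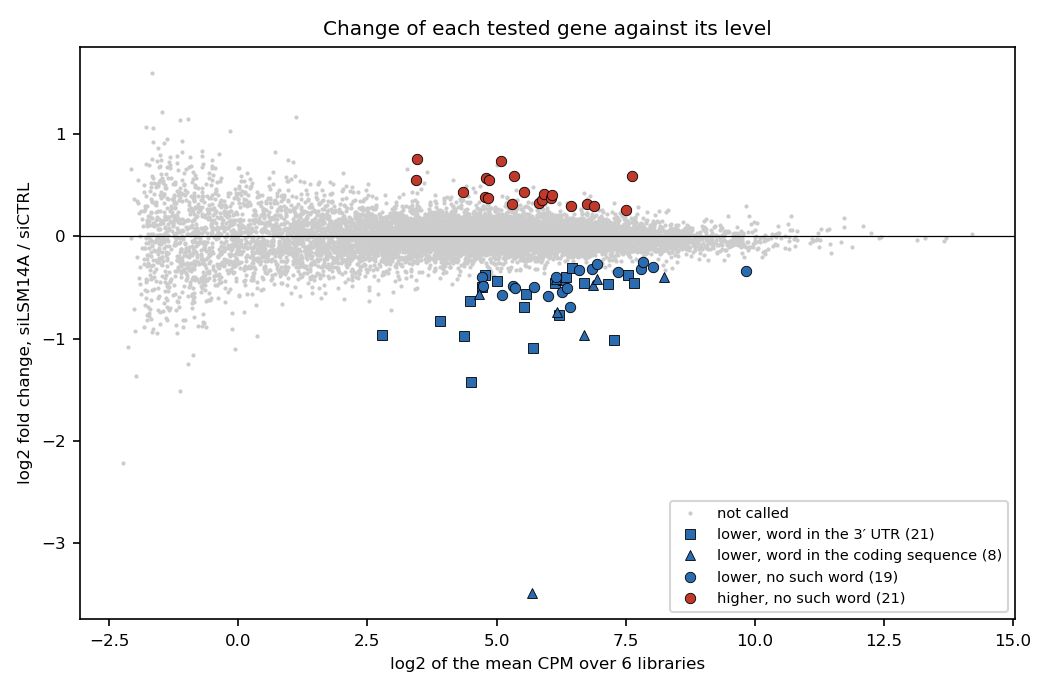
Log2 fold change in siLSM14A against siCTRL cells (y axis) by the log2 of the mean CPM over the 6 libraries (x axis), 1 point per tested gene, with called genes in colour and shaped by where their transcript holds the word AACGGAG. Of the lower genes, 21 hold the word in the 3′ UTR and 8, LSM14A included, in the coding sequence. The higher genes shown all lack it, as do most of the tested genes. Genes that are not reported here are left out.

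Where an mRNA holds AACGGAG was set beside its change. The word was searched as these letters on the sense strand of canonical transcripts. It was present in 1082 of 12492 tested genes with such a transcript (8.66%) and in the 3′ UTR of 264 (2.11%). Among the 49 lower genes, 29 held it (59.2%), 21 of them in the 3′ UTR (42.9%) and 8 in the coding sequence but not the 3′ UTR. None of the 22 higher genes held it, which says little beside the 8.66% of all tested genes. The median 3′ UTR length was 2984 bases in the higher genes, 1454 in the lower genes and 1345 in all. The lower genes without the word include IGSF8, CUX1, FAM168A, PPARA, UBAC1, NPDC1, OXA1L, PRPF19, CD63 and EIF4E2. The sequences of the siRNAs are not given in the sources used here, and whether any of them pairs with the word was not tested.

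The changes of genes with the word in the 3′ UTR were centred slightly below 0. Without LSM14A, the median log2 fold change of these 264 genes was -0.059 (quartiles -0.198 and 0.052), 64.4% of them were below 0, and 21 (7.95%) were called lower. The 721 genes with the word in the coding sequence but not the 3′ UTR had a median of -0.046, and 7 (0.971%) were called lower. The 96 genes with the word in the 5′ UTR alone had a median of 0.007 and no call. Most genes with the word were thus not called. In the 11410 genes without it, the median was 0.002, 20 (0.175%) were called lower and 22 were called higher. A shorter match, the last 6 bases ACGGAG in the 3′ UTR of 1120 genes without the full word, went with a median of -0.006. Of these 1120 genes, 5 (0.446%) were called lower and 1 was called higher. The other strand of the word, CTCCGTT, in the 3′ UTR of 346 genes without the word (2.77%), went with a median of -0.004 and no call. The median for the word in the 3′ UTR stayed between -0.07 and -0.048 when each library was left out and was -0.055 with a GC correction. As the word came from earlier results of these data, and the 264 genes include the 21 called lower, these medians and their stability are a description. They carry no test. With the base A after the word, as in LSM14A, the median was -0.057 (70 genes), and without it -0.059 (194 genes).

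**Figure D3:**
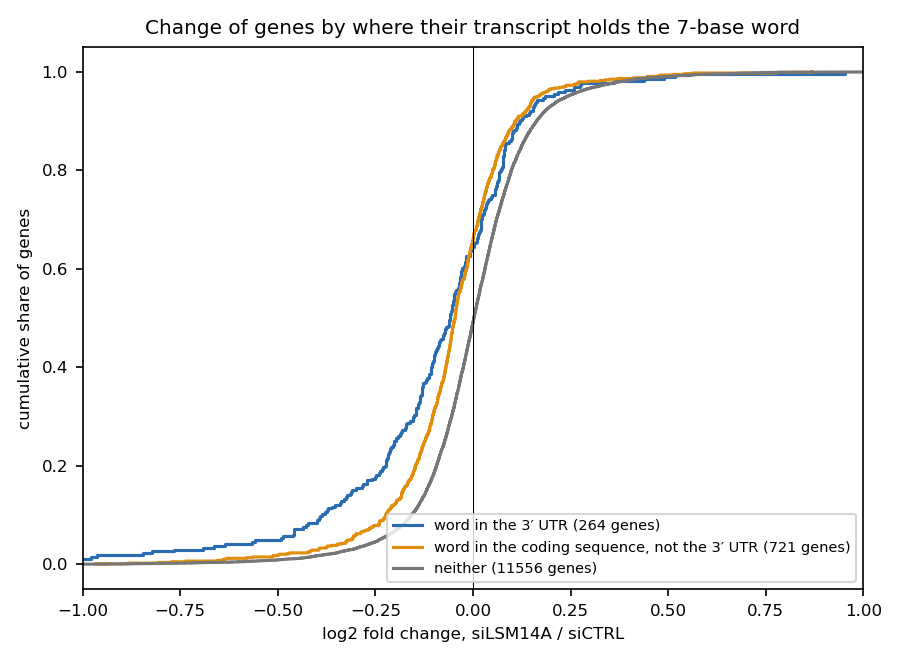
Cumulative share of genes (y axis) by log2 fold change (x axis) for genes with AACGGAG in the 3′ UTR, genes with it in the coding sequence but not the 3′ UTR, and all others, without LSM14A. The median is -0.059 and the lower quartile -0.198 for the 3′ UTR, against -0.046 and -0.124 for the coding sequence.

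In the lists closest to LSM14A's pathway, only EIF4E2 was called. Of 16 tested genes for partners of LSM14A and decapping proteins, EIF4E2 was lower and none was higher, and the list median was -0.013. DDX6, the helicase that binds LSM14A, had a log2 fold change of 0.14 (SE 0.0533, adjusted p = 0.4), EIF4ENIF1 one of -0.1 (adjusted p = 0.643) and LSM14B, the paralogue, one of -0.18 (adjusted p = 0.216). None of these 3 passed the test. The decapping enzyme DCP2 had 0.26 (adjusted p = 0.0884), its partner DCP1B 0.01 and the scaffold EDC4 0.03. CPEB4 had 0.38 (adjusted p = 0.101), XRN1 -0.14, PATL1 0.02, EDC3 -0.01, PRMT1 -0.11, PRMT5 0.0, ATXN2 -0.02, ATXN2L -0.07 and EIF4E -0.02. No gene was called in the LSM1 to LSM8 ring (8 tested, LSM7 at -0.41 with an adjusted p of 0.101), the CCR4-NOT and other deadenylation genes (19, PAN2 at -0.24), Argonaute, TNRC6 and miRNA processing (13), stress granule proteins (13) or nonsense-mediated decay (13). Over all tested genes 0.566% were called, so the absence of a call in lists this small says little about them.

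Single genes were called in lists of other functions. Among 36 translation initiation factors EIF3F was the 1 called, with EIF2B1 at -0.17 and EIF4G2 at 0.14. In MHC class I antigen presentation (18 genes) TAP1 was the 1 called, with ERAP1, which trims the peptides, at -0.32 (adjusted p = 0.134). CCND1 was the 1 of 21 G1/S genes, with CDK6 at 0.26 (adjusted p = 0.101), and WEE1 the 1 of 27 G2/M genes. Apoptosis regulators (23 genes) had BIRC3 higher and CYCS lower, with BCL2L11 (BIM) at 0.32 (adjusted p = 0.0779). TP53INP1 was the 1 of 20 p53 targets, AHSA1 the 1 of 16 heat shock genes and MCC the 1 of 30 Wnt pathway genes. Each of these shares is 1 or 2 genes of a list, beside 0.566% over all tested genes.

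No member was called in the lists of DNA replication (42 genes), ribonucleotide reductase and dNTP supply (11), non-homologous end joining (18), homologous recombination and Fanconi anemia (29) or the ATR and ATM checkpoint (15), and their medians lay between 0.004 and 0.047. The same holds for the 78 cytosolic ribosomal protein genes, of which 73 were below 0. Their median was -0.066 and ranged from -0.164 to -0.006 over the 3 siLSM14A libraries, and RPS19 had the smallest p (log2 fold change -0.23, adjusted p = 0.288). The median of this list was 0.004 in HU-treated cells and 0.202 in polysomal RNA. The 23 cholesterol genes had a median of -0.105, with 20 below 0 and FDPS, a step of the mevalonate pathway, at -0.31 (adjusted p = 0.0578). Their median was -0.053 in HU-treated cells. Nuclear-encoded respiratory chain genes (67) had a median of -0.043, which was 0.016 in HU-treated cells and 0.146 in polysomal RNA. None was called in the melanocyte lineage (19 genes, median 0.013), dedifferentiated melanoma (15, NGFR at 0.32 with an adjusted p of 0.127) or interferon and STING genes (38, median 0.082, RIGI at 0.33 with an adjusted p of 0.278). As only 0.566% of all tested genes were called, the absence of a call in any list of this paragraph says little about its genes.

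**Figure D4:**
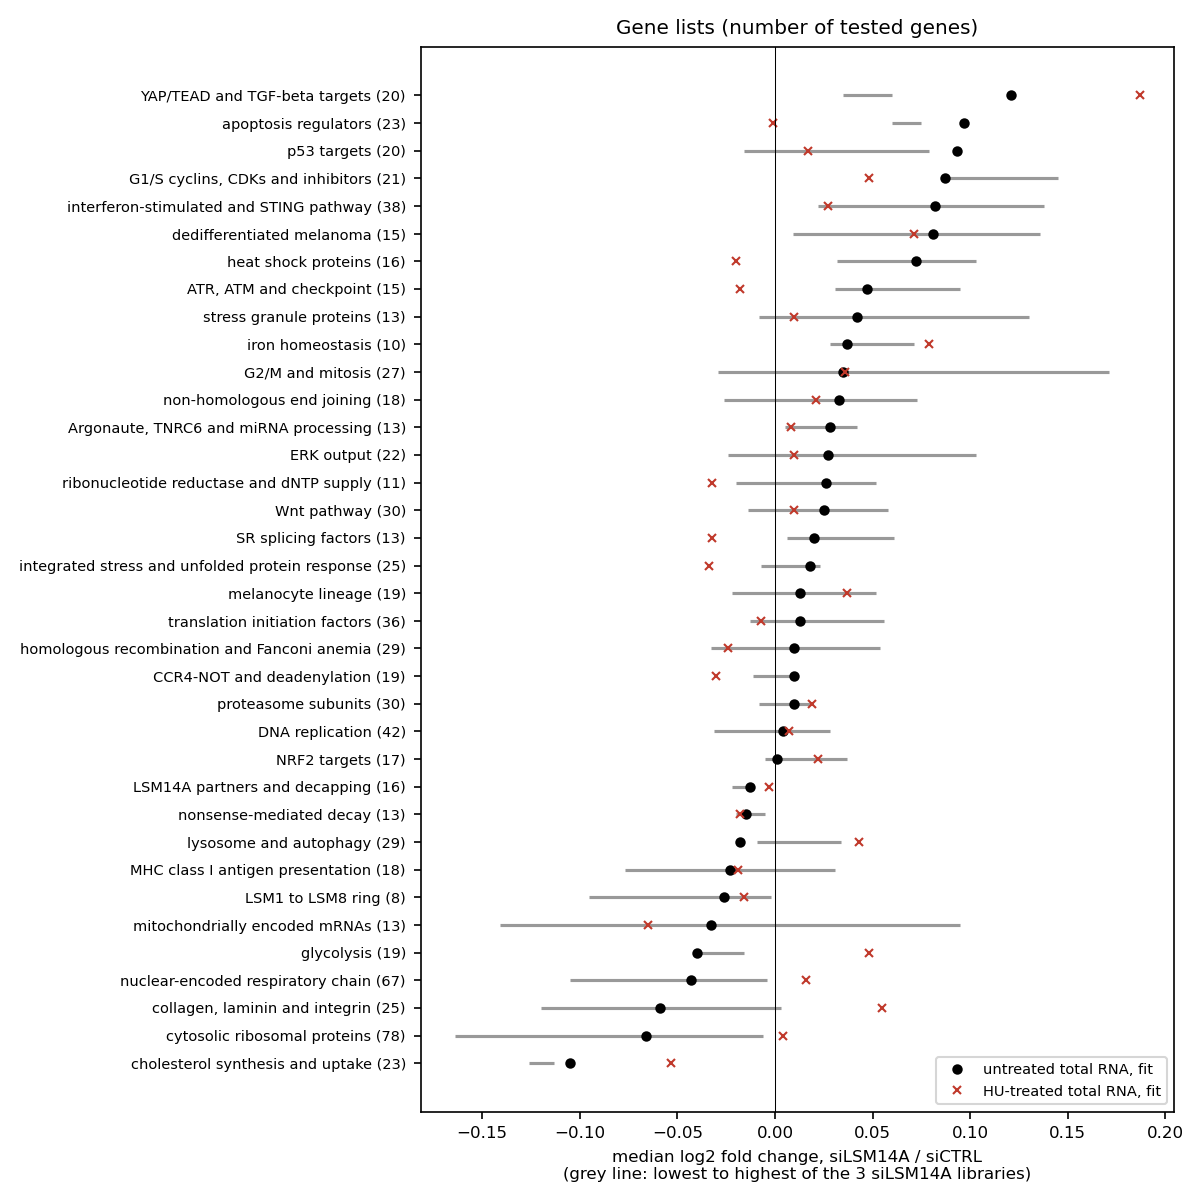
Median log2 fold change of each gene list with at least 8 tested genes (x axis) in untreated cells (black points) and HU-treated cells (red crosses), with the number of genes in parentheses. Grey lines run from the lowest to the highest of the 3 siLSM14A libraries, each as the list's median difference of log2(CPM + 0.5) from the siCTRL mean, so that a point from the fit may lie outside its line. In untreated cells the medians lie between -0.105 (cholesterol) and 0.121 (YAP/TEAD and TGF-beta targets, at 0.187 in HU-treated cells).

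The same genes were then read in the libraries of HU-treated cells, which share no library with the untreated comparison. Whether treated and untreated cells came from the same transfected cultures is not stated, so the comparisons are not taken as independent. The fit there called 100 of 12475 genes (0.802%). All 71 genes called in untreated cells had the same sign in HU-treated cells, where 50.0% of all tested genes were above 0. At an adjusted p under 0.05, 38 of the 49 lower genes and 11 of the 22 higher genes were called in the same direction, against 0.561% and 0.24% of all genes tested in HU-treated cells. Deviations of same-numbered libraries of HU-treated cells correlated by 0.472, 0.223 and 0.423, though the labels do not say what a number shares. A fit with the number in the model, a choice that rests on these counts, called 49 lower and 19 higher genes. The shares over all genes in that fit were 3.62% and 3.23%. Changes were of similar size, with a median of -0.48 in the lower and 0.41 in the higher genes. TAP1 changed by -1.29 (adjusted p = 1.61e-06), EIF3F by -1.02, GTF3A by -1.03, BRI3BP by -1.07 and CCND1 by 0.48 (adjusted p = 0.00456; edgeR). KREMEN1, SYNGR2, WEE1 and BIRC3 were among those not called with HU without the replicate number.

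A difference between the responses in untreated and HU-treated cells was tested as an interaction, and 0 of 12666 genes passed at an adjusted p under 0.05 in edgeR or in DESeq2 (367 and 307 genes at an unadjusted p under 0.05). Of the 71 genes, 5 had an unadjusted p under 0.05. CYCS fell further with HU (-0.66 against -0.46). RNF182 (0.44 against 0.76), SYTL2 (0.17 against 0.37), WEE1 (0.12 against 0.32) and BIRC3 (0.16 against 0.55) rose less, and none of the 5 passed the adjusted test. Because the 71 genes were chosen by their untreated change, which also enters the interaction, the values of these 5 are a description.

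In polysomal RNA of untreated cells the fit called 2 of 12342 genes, which is 0.0162%, and 242 had an unadjusted p under 0.05. LSM14A was 1 of them, with 30.9, 39.8 and 49.8 CPM in siCTRL libraries and 2.465, 1.695 and 1.597 CPM in siLSM14A libraries (log2 fold change -4.38, SE 0.272, adjusted p = 7.44e-05, edgeR). The other genes had larger errors in this fraction. TAP1, for example, had a log2 fold change of -1.52 (adjusted p = 0.102) and BRI3BP one of -1.22 (adjusted p = 0.0951). All 71 genes had the same sign as in total RNA, and 33 lower and 8 higher genes had an unadjusted p under 0.05 in that direction. Of all genes tested in polysomal RNA, 48.7% were above 0. The methods describe RNA from heavy fractions and from the input, so both readouts may share cultures and are not taken as independent. The medians were -0.5 for the lower and 0.36 for the higher genes. For the genes with AACGGAG in the 3′ UTR the median was -0.127 in polysomal RNA (260 genes) and -0.058 in total RNA of HU-treated cells (262 genes).

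**Figure D5:**
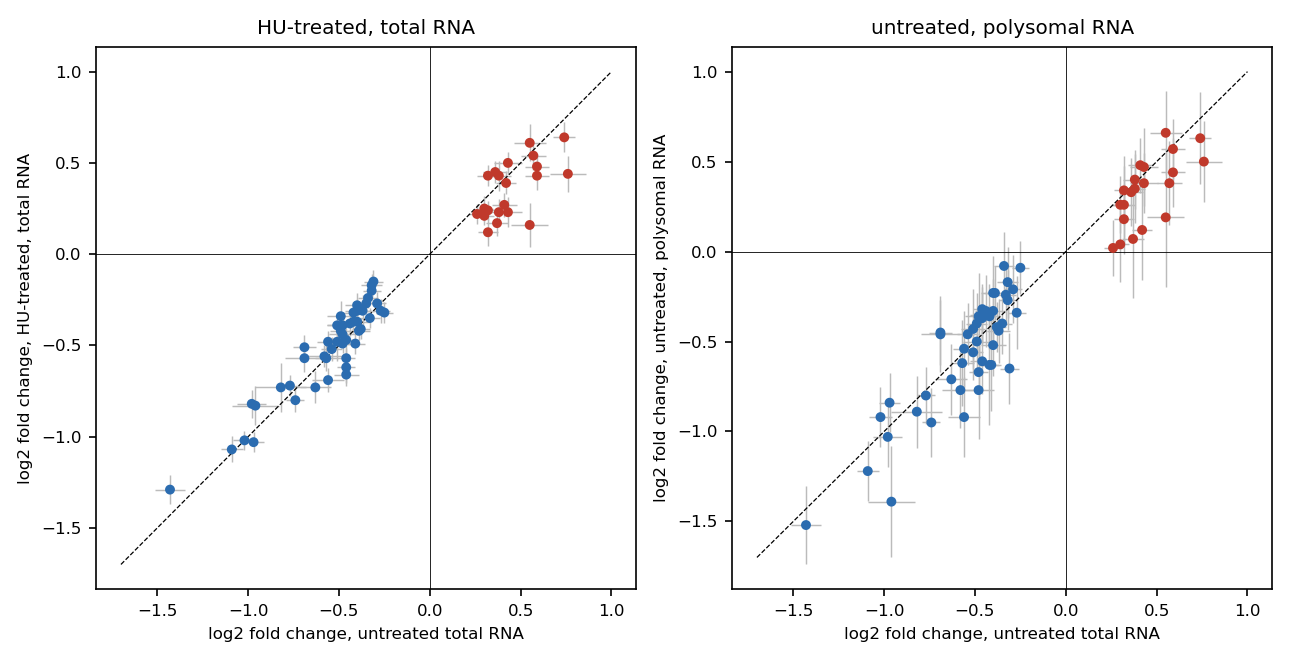
Log2 fold change of called genes other than LSM14A in total RNA of HU-treated cells (left, y axis) and polysomal RNA of untreated cells (right, y axis) against that in total RNA of untreated cells (x axis), with standard errors as grey lines and the line of equal change dashed. Points of the lower genes (blue) and higher genes (red) stay in their own quadrant in both panels, with wider errors in polysomal RNA. Genes that are not reported here are left out.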

How the data were processed

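Total RNA of A2058 cells was compared between 3 siLSM14A NT and 3 siCTRL NT libraries, grouped by their labels. The deposited values are raw counts per Gencode gene, which the authors obtained from trimmed reads after alignment with STAR (2.6.1a in the submitters' processing notes) on hg19. Whether counting used strand is not given in the sources used here. All 24 columns were used. Of 20345 IDs, 19086 were protein-coding in the GRCh37 annotation used here, 551 were of another type and 708 were not in it, and these last groups entered one alternative only.

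Genes were kept by filterByExpr (minimum count 10, minimum total 15) and tested with the quasi-likelihood F-test of edgeR 4.0.16 in R 4.3.3 with TMM normalization and Benjamini-Hochberg adjustment over all tested genes. CPM here are counts per 10 to the power of 6 counts of tested genes after TMM scaling, except for cell markers, which were scaled by the library total. Standard errors come from the fold change and the F statistic. Scripts were tested on simulated data. The word search used Python 3.11.15. Depth was 24789280 to 40645263 counts per library.

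Replicates were not duplicates (chi-square per gene 6.281 to 20.88). Deviations of same-numbered libraries correlated by -0.276, 0.27 and -0.226 in untreated cells, so the numbers were not taken to pair them. In HU-treated cells they correlated by 0.472, 0.223 and 0.423, and a fit with the number in the model was read beside the main fit. Libraries of different numbers could correlate as much, as siCTRL replicate 1 and siLSM14A replicate 3 did in untreated cells (0.476). Both choices rest on these counts, and the labels do not settle them.

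The members, gene lists and the word were chosen with earlier results of these data known. Named were LSM14A, the 20 genes of smallest p in each direction, called members of a list, up to 2 further members of each list, and all LSM14A partners. Other called genes, VSIG10 and ZNF689 were named after their values were seen. Results of 2 genes and the sequence of 1 site are not reported here, although they stay in the counts. Alternatives were DESeq2 1.42.0, RLE factors, other filters, all genes, the replicate number as a block, a GC correction (loess, span 0.3), larger fits and each library left out.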

Additional observations from a re-analysis of the deposited data

How the results depend on the processing

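In untreated total RNA, where 71 genes were called, DESeq2 called 200 (94 higher, 106 lower), the GC correction 119, the fit of all 12 total RNA libraries 131, and the fit of all 24 libraries 13, all of them lower. The replicate block gave 45, with 43 of them among the 71, and the block with the GC correction 58. Leaving out each library gave 28 to 80. The cause of these differences was not tested. RLE factors gave 71, a minimum of 10 counts in every library 70, all genes 76 and no filter 102. In HU-treated cells (100 genes), DESeq2 gave 189, the replicate block 855 and leaving out each library 46 to 101. In polysomal RNA (2 genes), DESeq2 gave 8, no filter 4 and leaving out each library 2 to 3. The interaction gave 0 in every fit. Over 69 called genes that are named, 1104 values under alternatives all kept their direction, and 823 stayed past the threshold. Of 296 list medians under alternatives, 41 moved by more than 1 SD between libraries, 32 of them when a library was left out and 9 with the GC correction. The number of libraries, 3 per group, limits the precision.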

Other observations

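When all IDs of the table were tested, 3 outside the protein-coding genes of the annotation were called. GJD3-AS1, an antisense RNA, had a log2 fold change of -0.57 (adjusted p = 0.0394, edgeR). The other two have no gene name in the annotation used here: ENSG00000108292 had -0.42 (adjusted p = 0.00848) and ENSG00000162290 had 0.32 (adjusted p = 0.0376).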
